A study of Mus musculus with 49 samples.

Results

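The 9 genes described here are the neutrophil-attracting chemokines Cxcl1, Cxcl2, Cxcl3 and Cxcl5, the receptors Cxcr2 and Csf3r, the calcium-binding proteins S100a8 and S100a9, and G0s2. They were looked up by symbol in a table of raw counts for 39179 genes, and all 9 were found in it. The choice of these genes was made with earlier results of these data known. The tissue is CT26, a mouse colorectal carcinoma line injected into BALB/c mice, with 1 library of bulk tumour RNA per sample and 49 libraries in all. Anti-PD-1 (an antibody against the inhibitory T cell receptor PD-1, 200 µg per dose in 2 doses) plus celecoxib (an inhibitor of the prostaglandin-making enzyme COX-2, 30 mg/kg daily) was given to 16 tumours, anti-PD-1 alone to 17, celecoxib alone to 7 and the solvent vehicle to 9. Treatment began on day 7 after injection and lasted 7 days. The submitters also mark each tumour R or NR, without a definition: 12 of 16 combination tumours and 4 of 17 anti-PD-1 tumours are R, and all celecoxib and vehicle tumours are NR. The day of collection is given as day 7 post-treatment in one field and as day 4 in the description of RNA extraction. The labels give neither the age of the mice nor a statement that each tumour came from its own animal, so the p-values below rest on a spread between samples that may in part be technical.

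Neutrophils leave the bone marrow under granulocyte colony-stimulating factor, which signals through the receptor encoded by Csf3r, and enter tissue along gradients of ELR chemokines. In mice these chemokines include CXCL1, CXCL2, CXCL3 and CXCL5, and they act on CXCR2. S100A8 and S100A9 pair into calprotectin, a major cytosolic protein of neutrophils that monocytes and stressed keratinocytes also make, and G0S2 inhibits adipose triglyceride lipase and is abundant in both fat and neutrophils. The chemokines can be made by many cell types, tumour cells, fibroblasts and macrophages included, and in other settings prostaglandin E2, the main product of COX-2 (gene Ptgs2) in many tumours, has been linked to their expression. The comparisons below ask how the 9 transcripts differ between treatments and response labels, and how they move with Ptgs2.

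The 4 chemokine genes lie in 1 cluster on mouse chromosome 5, all on the plus strand. On GRCm38, Cxcl5 is at chr5:90759360-90761624, Cxcl3 at chr5:90786103-90789600, Cxcl1 at chr5:90891241-90893115 and Cxcl2 at chr5:90903871-90905938. The span from Cxcl5 to Cxcl2 is 146.6 kb, and Cxcl1 and Cxcl2 are 10.8 kb apart. RefSeq promoter sequences (250 bases before to 50 after the start site, GRCm38.p6) were found for 8 of the 9 members, all except Cxcl5. The 120 bases before the RefSeq start site, which need not be the gene start given above, are shown for the 3 chemokines that have one, because an identical run of bases matching the NF-kB consensus stands before the start in all 3. The windows are chr5:90891125-90891244 for Cxcl1, chr5:90903779-90903898 for Cxcl2 and chr5:90785981-90786100 for Cxcl3, read 5′ to 3′ on the plus strand. Capitals mark that stretch, and the TATAAA motif in Cxcl3.
Cxcl1: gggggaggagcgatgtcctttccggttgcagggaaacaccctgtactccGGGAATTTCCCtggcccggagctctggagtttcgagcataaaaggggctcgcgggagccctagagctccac
Cxcl2: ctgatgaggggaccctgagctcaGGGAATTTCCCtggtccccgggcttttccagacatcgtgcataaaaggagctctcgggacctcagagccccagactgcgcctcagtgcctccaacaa
Cxcl3: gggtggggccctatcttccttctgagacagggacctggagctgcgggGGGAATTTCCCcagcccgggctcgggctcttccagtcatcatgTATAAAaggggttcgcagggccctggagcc
The stretch runs from position -71 to -61 relative to the start in Cxcl1, from -97 to -87 in Cxcl2 and from -73 to -63 in Cxcl3, and it matches the consensus on both strands through overlapping positions. Both strands were searched, and 8.459% of 32851 promoters of this length hold an NF-kB consensus. TATAAA, likewise searched on both strands, is held by 13.616%. Of the other members with a promoter sequence, Csf3r holds an NF-kB consensus match from -129 to -120, and S100a8 and S100a9 hold TATAAA. These are matches of letters and show no binding.

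**Figure D1:**
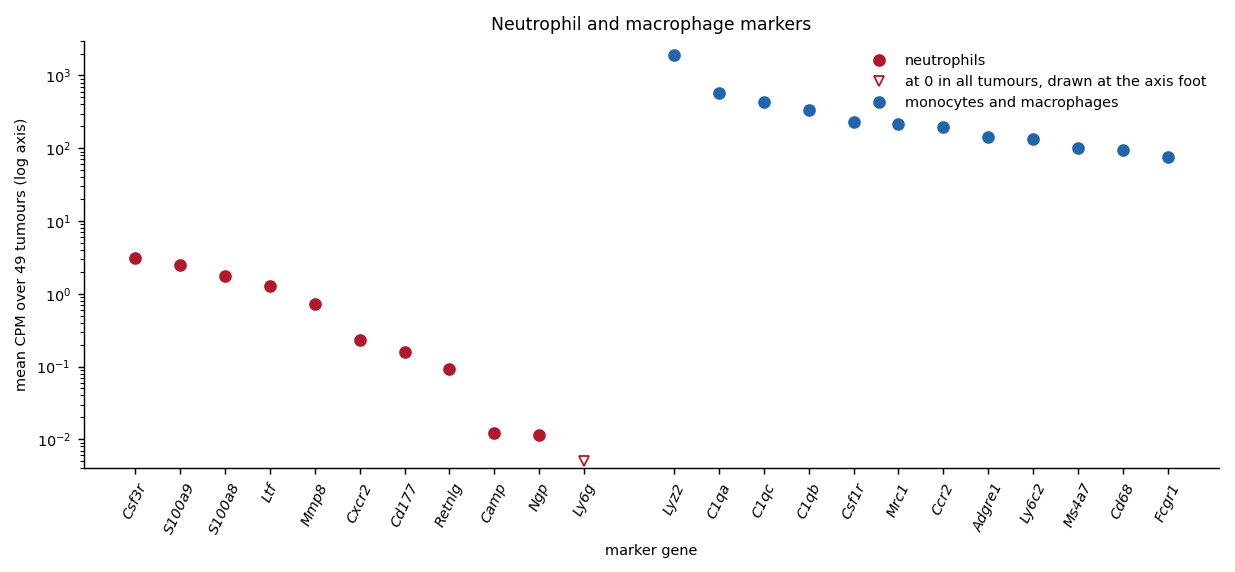
Mean CPM, the share of a library's counts on a scale common to all libraries (log axis), over 49 tumours of the neutrophil markers (red) and the monocyte and macrophage markers (blue), 1 point per gene. Neutrophil markers lie at or below 3.10 CPM, Ly6g is at 0, and macrophage markers lie between 76.1 and 1908 CPM.

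Libraries were made from transcript 3′ ends (QuantSeq FWD), so 1 transcript gives about 1 tag whatever its length, and levels are given as CPM, the count scaled to a common library size (TMM). Total counts per library ranged from 4251251 to 13671294, with a median of 7670623. The members are low: 5323 counts of Cxcl1, 2782 of Cxcl5, 1692 of Cxcl2, 1157 of Csf3r, 967 of S100a9, 698 of S100a8, 232 of G0s2, 88 of Cxcr2 and 29 of Cxcl3 over the 49 libraries. Several genes that mark neutrophils were close to absent. Ly6g, the standard surface marker of mouse neutrophils, had 0 counts, which allows up to 0.00767 CPM over all libraries (3 counts of the total, which covers counting error only). The granule genes Camp and Ngp had 6 and 4 counts, and Retnlg, a neutrophil-specific resistin-like gene, had 38. Of the other markers that are not members, Cd177 had 63 counts, Mmp8 276 and Ltf 398. Summed over 11 neutrophil markers, of which S100a8, S100a9, Cxcr2 and Csf3r are 4, the level was 4.61 to 25.1 CPM with the combination (median 7.08), 1.61 to 18.9 CPM with anti-PD-1 (median 8.17), 4.79 to 12.6 CPM with celecoxib (median 9.79) and 4.00 to 43.8 CPM with vehicle (median 6.71). The 43.8 CPM came from vehicle replicate 6 alone, where Ltf had its highest level, 36.1 CPM. The next vehicle tumour stood at 9.37 CPM, and the source of that Ltf RNA was not tested. The 12 monocyte and macrophage markers summed to between 744 and 14183 CPM over all tumours. The name neutrophil genes is thus not borne out by Ly6g, Camp, Ngp and Retnlg, while Mmp8 and Ltf were detected (means of 0.730 and 1.28 CPM). The 9 are described below as transcripts of whole tumours. In bulk RNA, fewer cells of a type and less RNA per cell cannot be told apart.

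Cxcl1 was the most abundant member, with a mean of 13.8 ± 12.8 CPM (SD, n = 49). It ranged from 7.16 to 68.1 CPM in combination R tumours (median 15.2), and it was 4.70, 4.96, 7.35 and 7.89 CPM in the 4 combination NR tumours. Anti-PD-1 R tumours held 9.17, 12.8, 19.8 and 22.1 CPM, and anti-PD-1 NR tumours 3.55 to 32.8 CPM (median 9.07). Celecoxib tumours ran from 3.31 to 11.3 CPM (median 7.88) and vehicle tumours from 6.69 to 14.6 CPM (median 10.3). Combination replicates 14 and 13, both R, stood above all other tumours at 68.1 and 66.9 CPM, and the next were anti-PD-1 NR replicate 2 at 32.8 CPM and combination R replicate 3 at 31.8 CPM. Of the 12 combination R tumours, 11 exceeded the highest combination NR tumour.

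Cxcl2, the chemokine next to Cxcl1 on the chromosome, averaged 4.35 ± 4.68 CPM (SD, n = 49). Combination R tumours ranged from 1.31 to 26.9 CPM (median 3.32), against 0.162, 0.893, 1.17 and 2.69 CPM in combination NR tumours. Anti-PD-1 R tumours had 0.457, 4.25, 9.05 and 14.7 CPM, and anti-PD-1 NR tumours 0.819 to 9.65 CPM (median 2.55). Celecoxib tumours had 0.225 to 5.49 CPM (median 1.80) and vehicle tumours 1.51 to 12.01 CPM (median 5.29). The highest tumours were combination R replicate 14, anti-PD-1 R replicate 12 and combination R replicate 13, followed by vehicle replicate 8, which also has the highest Ptgs2 of its group at 60.7 CPM. The groups overlap, with 8 of 12 combination R tumours above the highest combination NR tumour.

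Cxcl3 was near the limit of detection. It had 0 counts in 36 of 49 libraries, where a count of 0 allows up to 0.219 CPM in the deepest library and 0.706 CPM in the shallowest, and its highest value was 1.04 CPM (9 counts) in combination R replicate 13. The transcripts of Cxcl2 and Cxcl3 share a run of 110 identical bases, but within their last 400 bases, where 3′ tags fall, the longest shared run is 16 bases. Cxcl5 was steadier than the other chemokines. Its mean was 7.15 ± 3.22 CPM (SD, n = 49) and its coefficient of variation 45.04%, against 92.6% for Cxcl1 and 108% for Cxcl2. Combination R tumours ranged from 3.37 to 15.1 CPM (median 7.14), and combination NR tumours had 3.08, 3.63, 5.50 and 6.40 CPM. Anti-PD-1 R tumours had 6.44, 7.67, 10.97 and 11.7 CPM, anti-PD-1 NR tumours 3.68 to 17.8 CPM (median 8.27), celecoxib tumours 3.80 to 7.76 CPM (median 4.51) and vehicle tumours 3.68 to 9.25 CPM (median 6.501). The highest Cxcl5 tumour was anti-PD-1 NR replicate 2, and the ranges of R and NR tumours overlapped under each antibody treatment.

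**Figure D2:**
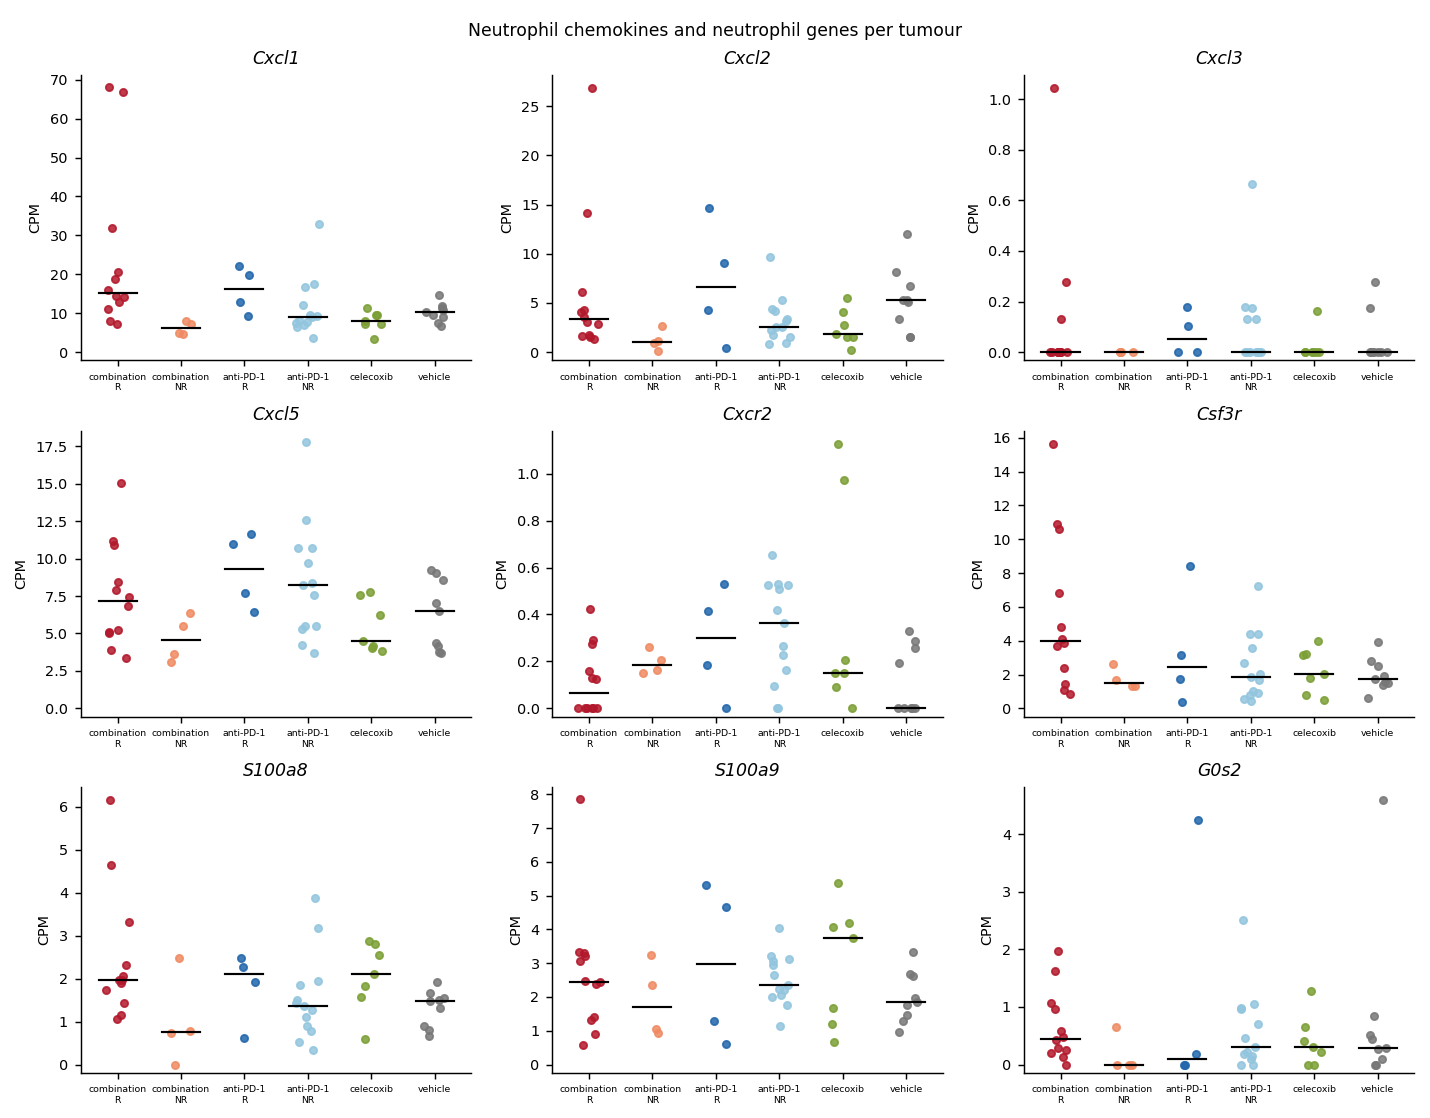
CPM of each member (vertical axis) in every tumour, 1 point per tumour, with the median of each treatment and response group as a black bar. Cxcl1 reaches 68.1 and 66.9 CPM in 2 combination R tumours, while the 4 combination NR tumours lie between 4.70 and 7.89 CPM.

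Of the receptors, Cxcr2 (chr1:74153989-74161246, plus strand), through which the 4 chemokines act, was barely detected, with 0 counts in 15 of 49 libraries and at most 6 counts in any. Its highest levels were 1.13 and 0.975 CPM in celecoxib replicates 2 and 1. Csf3r (chr4:126024550-126044440, plus strand), the receptor for granulocyte colony-stimulating factor, averaged 3.10 ± 3.03 CPM (SD, n = 49). Combination R tumours ranged from 0.871 to 15.6 CPM (median 3.99), and combination NR tumours had 1.34, 1.35, 1.70 and 2.59 CPM. Anti-PD-1 R tumours had 0.372, 1.76, 3.18 and 8.41 CPM, anti-PD-1 NR tumours 0.455 to 7.26 CPM (median 1.84), celecoxib tumours 0.487 to 4.00 CPM (median 2.03) and vehicle tumours 0.625 to 3.92 CPM (median 1.76). The 3 highest tumours were combination R replicates 16, 13 and 14, with 15.6, 10.9 and 10.6 CPM. In those tumours the 12 monocyte and macrophage markers summed to 9624, 7301 and 3961 CPM, against a median of 3492 CPM over all tumours, and the 8 T cell markers to 207, 136 and 147 CPM, against a median of 41.1 CPM. The part of those cells in the Csf3r level was not tested.

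The calprotectin genes sit in the S100 cluster of chromosome 3, S100a8 at chr3:90668978-90670035 on the plus strand and S100a9 at chr3:90692632-90695721 on the minus strand. S100a8 ranged from 1.07 to 6.15 CPM in combination R tumours (median 1.97), with 0, 0.744, 0.783 and 2.49 CPM in combination NR tumours. It had 0.620, 1.92, 2.28 and 2.47 CPM in anti-PD-1 R tumours, 0.328 to 3.87 CPM in anti-PD-1 NR tumours (median 1.35), 0.599 to 2.88 CPM in celecoxib tumours (median 2.11) and 0.660 to 1.91 CPM in vehicle tumours (median 1.49). S100a9 ranged from 0.582 to 7.86 CPM in combination R tumours (median 2.46), with 0.932, 1.04, 2.35 and 3.24 CPM in combination NR tumours. It had 0.620, 1.28, 4.67 and 5.30 CPM in anti-PD-1 R tumours, 1.13 to 4.04 CPM in anti-PD-1 NR tumours (median 2.37), 0.676 to 5.36 CPM in celecoxib tumours (median 3.73) and 0.975 to 3.34 CPM in vehicle tumours (median 1.84). All groups overlap for both genes. The 12 skin epithelium markers, which belong to cells that can also make both proteins, summed to 1573 CPM in celecoxib replicate 3 and to at most 33.3 CPM elsewhere; that tumour had 2.54 CPM of S100a8 and 4.07 CPM of S100a9, inside the range of the other celecoxib tumours.

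G0s2 (chr1:193272161-193273217, minus strand), which overlaps Lamb3 on the opposite strand, had 0 counts in 12 libraries. It reached 4.59 CPM in vehicle replicate 6 and 4.25 CPM in anti-PD-1 R replicate 15, with no other tumour above 2.51 CPM. The 11 adipocyte markers summed to 1248 CPM in vehicle replicate 6, the highest of all tumours, and to 390 CPM in anti-PD-1 R replicate 15, against a median of 224 CPM. The 3 genes that followed G0s2 most closely over the 49 tumours, with treatment means removed, were Cidec (r = 0.69), Adipoq (r = 0.68) and Lpl (r = 0.67), a lipid droplet protein, the hormone adiponectin and lipoprotein lipase, all 3 among the adipocyte markers.

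Tests between treatments used edgeR's quasi-likelihood test over 13726 genes with Benjamini-Hochberg adjustment and 0.05 as the limit on the adjusted p. Cxcl3, Cxcr2 and G0s2 were below its filter on low counts, so 6 of 9 members were tested. With the combination against vehicle, 0.0729% of all tested genes were called, and no member was: 0 of 6 passed, and 2 of 6 had an unadjusted p under 0.05, beside 15.4% of all genes. The log2 difference of Cxcl1 was 0.94 (SE 0.37, adjusted p = 0.221), with means of 19.7 ± 19.9 CPM in combination tumours (SD, n = 16) and 10.2 ± 2.39 CPM in vehicle tumours (SD, n = 9). Csf3r differed by 1.21 (SE 0.49, adjusted p = 0.229), and S100a8 by 0.71 (SE 0.38, adjusted p = 0.355). S100a9, Cxcl5 and Cxcl2 differed by 0.34 (SE 0.34), 0.12 (SE 0.25) and -0.18 (SE 0.52). In Cxcl1, 6 of 16 combination tumours exceeded the highest vehicle tumour and 2 were below the lowest. Beside these values, in the same comparison, the fitted difference was positive for 10 of 10 muscle markers (median 3.43), 8 of 8 T cell markers (median 1.03) and 12 of 12 monocyte and macrophage markers (median 0.54), with 0 called in each list. Without the 15 libraries that hold most muscle, fat or skin RNA the differences were 0.33 for Cxcl1, -1.17 for Cxcl2, 0.32 for Cxcl5 and 1.03 for Csf3r, and with muscle, fat and skin markers as covariates they were 0.31, -0.94, 0.26 and 1.26, none called. S100a9 was at -0.0033 without those libraries and at 0.13 with the covariates. The part of T cells and macrophages in the members' values was not tested.

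Against anti-PD-1 alone, where 0.503% of genes were called, the combination again gave 0 of 6 members, with Cxcl1 at 0.67 (SE 0.30, adjusted p = 0.236), Csf3r at 0.78 (SE 0.39, adjusted p = 0.283) and Cxcl5 at -0.34 (SE 0.20, adjusted p = 0.392). Without the libraries with other tissue, Cxcl1 was at 0.0874 and Csf3r at 0.38. Against celecoxib alone, with 0.0364% of genes called, 0 of 6 passed. The difference of Cxcl1 was 1.30 (SE 0.42, unadjusted p = 0.00324, adjusted p = 0.834), with 19.7 CPM in combination tumours and 7.99 CPM in celecoxib tumours on average, and that of Csf3r 1.02 (SE 0.53, adjusted p = 0.918). With the tissue covariates Cxcl1 was at 0.45 and Csf3r at 0.91, and without the libraries with other tissue Cxcl1 was at 0.60 and Csf3r at 0.85. Anti-PD-1 against vehicle called 0.0874% of genes and 0 of 6 members, Cxcl5 differing by 0.46 (SE 0.25, adjusted p = 0.9998) and S100a9 by 0.40 (SE 0.33). Celecoxib against vehicle called 0 genes by edgeR, 0% of all, and 2.29% at an unadjusted p under 0.05, none of them a member. Cxcl1 stood at -0.35 (SE 0.44) and Cxcl2 at -1.10 (SE 0.66), S100a8 at 0.67 (SE 0.44) and S100a9 at 0.61 (SE 0.40), none past the limit. In that comparison 10 of 10 muscle markers were positive (median 5.02), the 3 tested skin markers too (median 2.65), and 9 of 10 adipocyte markers negative (median -1.96), with 0 called. The celecoxib difference with minus without anti-PD-1 was 1.02 for Cxcl1 (SE 0.54) and 1.31 for Cxcl2 (SE 0.79), again with 0 of 6 called and 0% of all genes. Without the libraries with other tissue these values were 0.36 and 0.34, and with the tissue covariates 0.53 and 0.86. For celecoxib against vehicle, Cxcl1 was at -0.14 with the covariates and S100a9 at 0.28 without those libraries. These comparisons share groups of tumours.

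The 3 members under the count filter were compared by two-sided permutation of log2 CPM (exact enumeration for groups under 10), in 27 comparisons of which 2 gave an unadjusted p under 0.05. Both were Cxcr2. Its log2 CPM differed by 0.60 between anti-PD-1 and vehicle (exact p = 0.0279), with 0.318 ± 0.218 CPM in anti-PD-1 tumours (SD, n = 17) and 0.119 ± 0.145 CPM in vehicle tumours (SD, n = 9). It differed by -0.51 between the combination and anti-PD-1 (permutation p = 0.0166), with 0.137 ± 0.131 CPM in combination tumours (SD, n = 16). These differences rest on few reads, 16 over the 16 combination libraries, 46 over the 17 anti-PD-1 libraries and 10 over the 9 vehicle libraries, and their p-values are unadjusted.

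**Figure D3:**
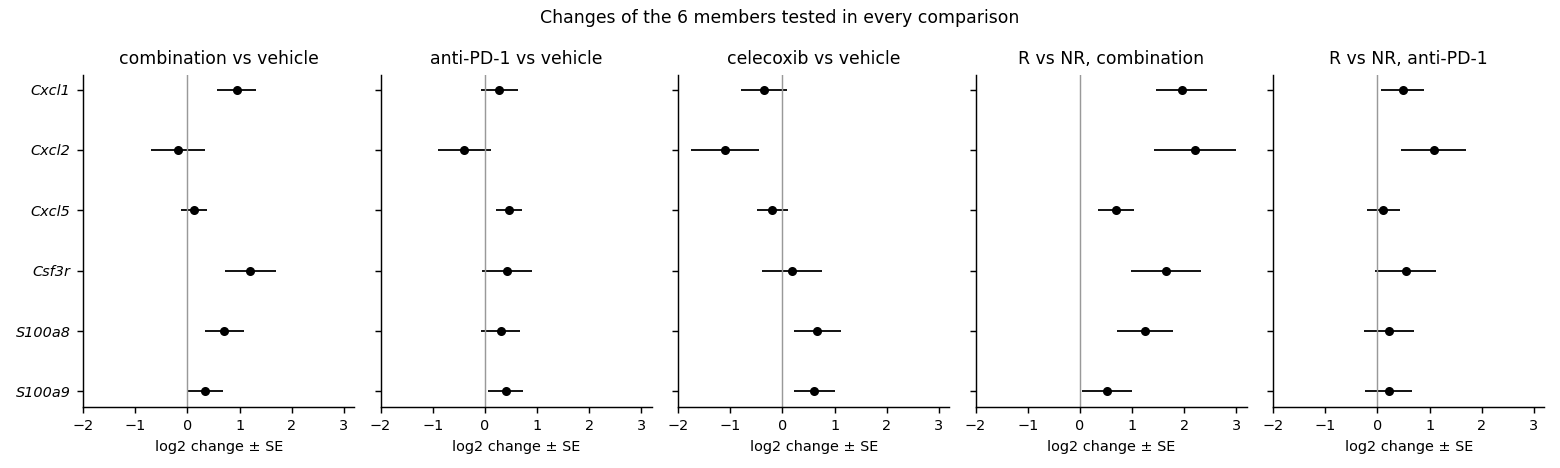
Log2 change with its standard error (horizontal axis) of the 6 members that passed the count filter in every fit, in 5 comparisons, each between the groups named above the panel. No member was called in any of them, and the largest values are those of Cxcl2 (2.20) and Cxcl1 (1.95) for R against NR under the combination.

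Response labels were compared in a fit of 6 treatment and response groups over 14247 genes, in which G0s2 passed the filter, so 7 of 9 members were tested. Under the combination, R tumours had the higher fitted level in 7 of 7 tested members, and 4 of 7 had an unadjusted p under 0.05 beside 9.11% of all genes, but 0 of 7 passed the adjusted limit, as did 0% of all genes. The median difference of the 7 was 1.65, against 0.03 over all genes tested. Of the members below the filter, Cxcr2 ran the other way and Cxcl3 did not. Their log2 CPM differed by -0.36 and 0.34 (exact permutation p = 0.198 and 0.786), on 16 and 12 counts over the combination libraries. Cxcl1 averaged 24.2 ± 21.2 CPM in combination R tumours (SD, n = 12) and 6.22 ± 1.63 CPM in combination NR tumours (SD, n = 4), a log2 difference of 1.95 (SE 0.49, unadjusted p = 0.000227, adjusted p = 0.329 by edgeR). Cxcl2 averaged 5.93 ± 7.46 CPM in R and 1.23 ± 1.06 CPM in NR tumours, a difference of 2.20 (SE 0.78, adjusted p = 0.428). Csf3r differed by 1.65 (SE 0.68, adjusted p = 0.484), S100a8 by 1.24 (SE 0.53, adjusted p = 0.504), Cxcl5 by 0.69 (SE 0.35, adjusted p = 0.549), S100a9 by 0.51 (SE 0.48, adjusted p = 0.744) and G0s2 by 2.11 (SE 1.32, adjusted p = 0.614). DESeq2 called 0.0816% of the genes with an adjusted p here, Cxcl1 among them (1.97, adjusted p = 0.0102) and no other member. G0s2 rests on few reads: without combination NR replicate 5, the 1 NR tumour with a count, its fitted difference was 5.46, a value that depends on the prior count because the other NR tumours are at 0, and with the tissue covariates it was 0.71. S100a9 ranged from 0.25 to 0.89 over single tumours left out and was 0.0726 with the covariates, and S100a8 was 2.22 without combination NR replicate 12.

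Muscle and adipocyte markers had higher medians in combination R than in combination NR tumours. The skin epithelium markers did not, with a median of 10.2 CPM in each. The 10 skeletal muscle markers summed to 11.02 to 2561 CPM in combination R tumours (median 68.7) and to 8.91 to 173 CPM in combination NR tumours (median 12.7), and the 11 adipocyte markers to 172 to 789 CPM in R (median 273) and 164 to 219 CPM in NR tumours (median 202). The tumours highest in Cxcl1, combination R replicates 14 and 13, had muscle sums of 2063 and 705 CPM. Without the 15 libraries with other tissue, Cxcl1 ran from 8.03 to 31.8 CPM in 7 combination R tumours (median 14.5) and from 4.70 to 7.89 CPM in 3 combination NR tumours (median 7.35). These ranges did not overlap, but the share of all genes that separate these tumours was not computed. The limits behind the 15 libraries were also chosen after seeing the data. They left out combination R replicate 10, whose 7.16 CPM lies inside the NR range, at a mean log2 CPM of muscle markers of 3.03, against a limit of 3. Combination R replicate 3, at 31.8 CPM, was kept with a muscle mean of 2.90. The log2 difference was 1.32 (edgeR, adjusted p = 0.842). With the tissue covariates it was 1.24 (edgeR, adjusted p = 0.991). Cxcl2 differed by 1.05 without those libraries and by 1.51 with the covariates, and Cxcl5 by 1.11 without the libraries. The T cell markers summed to 5.23 to 330 CPM in R (median 91.99) and 19.6 to 68.5 CPM in NR tumours (median 46.8), and the neutrophil markers, 4 of them members, to 6.39 to 25.1 CPM (median 9.14) and 4.61 to 6.32 CPM (median 5.60). The part of any of these cells in the members' values was not tested.

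Under anti-PD-1 alone, R against NR gave 0 of 7 members and 0% of all genes by edgeR, with 6.48% of genes and no member at an unadjusted p under 0.05. Cxcl1 averaged 15.97 ± 6.01 CPM in R (SD, n = 4) and 11.4 ± 7.55 CPM in NR tumours (SD, n = 13), a log2 difference of 0.48 (SE 0.41, adjusted p = 0.929). Cxcl2 averaged 7.11 ± 6.15 CPM in R and 3.25 ± 2.35 CPM in NR tumours, a difference of 1.08 (SE 0.62, adjusted p = 0.815) that was 0.48 without R replicate 12 and 0.28 by limma-voom. Without that tumour Cxcl1 differed by 0.30. G0s2 differed by 0.96 (SE 0.92, adjusted p = 0.944), a value set by R replicate 15: without that tumour it was -2.70. Averaged over both antibody treatments, where 0.0491% of genes were called, 0 of 7 members passed by edgeR. Cxcl1 differed by 1.22 (SE 0.31, adjusted p = 0.0899), Cxcl2 by 1.64 (SE 0.50, adjusted p = 0.129), Csf3r by 1.10 (SE 0.44, adjusted p = 0.244) and S100a8 by 0.74 (SE 0.35, adjusted p = 0.338). Csf3r was at 0.60 without anti-PD-1 replicate 17 and S100a8 at 1.23 without combination replicate 12. DESeq2 called 1.28% of the genes with an adjusted p, with Cxcl1 (1.23, adjusted p = 0.0177) and Cxcl2 (1.69, adjusted p = 0.0359) among them. Without anti-PD-1 replicate 2, an NR tumour with 32.8 CPM, edgeR called 0.14% of genes, with Cxcl1 among them (1.32, adjusted p = 0.0424). The difference of R against NR was larger under the combination than under anti-PD-1 by 1.46 for Cxcl1 (SE 0.64, unadjusted p = 0.0256, adjusted p = 0.999) and by 1.12 for Cxcl2 (SE 0.99, adjusted p = 0.999), so a dependence on treatment was not shown. Without the 15 libraries with other tissue the values were 0.76 for Cxcl1 and -0.15 for Cxcl2.

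Combination against anti-PD-1 was also split by label. Among R tumours Cxcl1 differed by 0.60 (SE 0.44, adjusted p = 0.756), with 0 of 7 members and 0% of all genes called, and by -0.07 without the libraries with other tissue. Among NR tumours the difference ran the other way, -0.86 for Cxcl1 (SE 0.46), -1.35 for Cxcl2 (SE 0.75) and -0.86 for Cxcl5 (SE 0.35), each with an adjusted p of 0.850, beside 0.0281% of genes called and 0 of 7 members. Cxcl5 was the 1 member there with an unadjusted p under 0.05 (0.0171, against 5.73% of all genes), with 4.65 ± 1.56 CPM in combination NR tumours (SD, n = 4) and 8.46 ± 3.93 CPM in anti-PD-1 NR tumours (SD, n = 13).

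Ptgs2 (chr1:150100031-150108227, plus strand) itself averaged 18.3 ± 18.98 CPM (SD, n = 49), and treatment accounted for 0.244% of the variance of its log2 CPM, against 11.2% for Cxcl1 and 7.31% for Cxcl2. It was 4.66 to 77.7 CPM in combination R tumours (median 12.3), 1.62, 5.06, 6.92 and 10.9 CPM in combination NR tumours, 10.6, 17.3, 52.8 and 64.7 CPM in anti-PD-1 R tumours and 4.68 to 33.1 CPM in anti-PD-1 NR tumours (median 7.79). It was 5.41 to 29.6 CPM in celecoxib tumours (median 11.9) and 7.19 to 60.7 CPM in vehicle tumours (median 12.05). Cxcl2 followed it across tumours. With treatment means removed, Pearson's r between log2 CPM of Cxcl2 and Ptgs2 was 0.76 and Spearman's rho 0.71 (permutation within treatments, p = 1e-05 for both, the smallest that 100000 resamples give). Within treatments r was 0.86 under the combination (permutation p = 3e-05), 0.64 under anti-PD-1 (permutation p = 0.00651), 0.75 under celecoxib (exact p = 0.0494) and 0.81 under vehicle (exact p = 0.00162). Without the 2 tumours of each treatment farthest from its median of Ptgs2, these were 0.73, 0.41, 0.85 and 0.81. Response labels were not removed from these values. Among combination R tumours alone r was 0.77 (permutation p = 0.00306), and 0.46 without the 2 farthest tumours. Among anti-PD-1 NR tumours alone r was 0.46 (permutation p = 0.115), and 0.53 without the 2 farthest. Without the 2 tumours farthest from the median of Ptgs2 over all treatments, combination R replicates 13 and 14, the pooled r was 0.69. Among 13725 tested genes, Ptgs2 had the highest r with Cxcl2, before Ell2, an RNA polymerase II elongation factor (0.74), and C9orf72 (0.72).

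**Figure D4:**
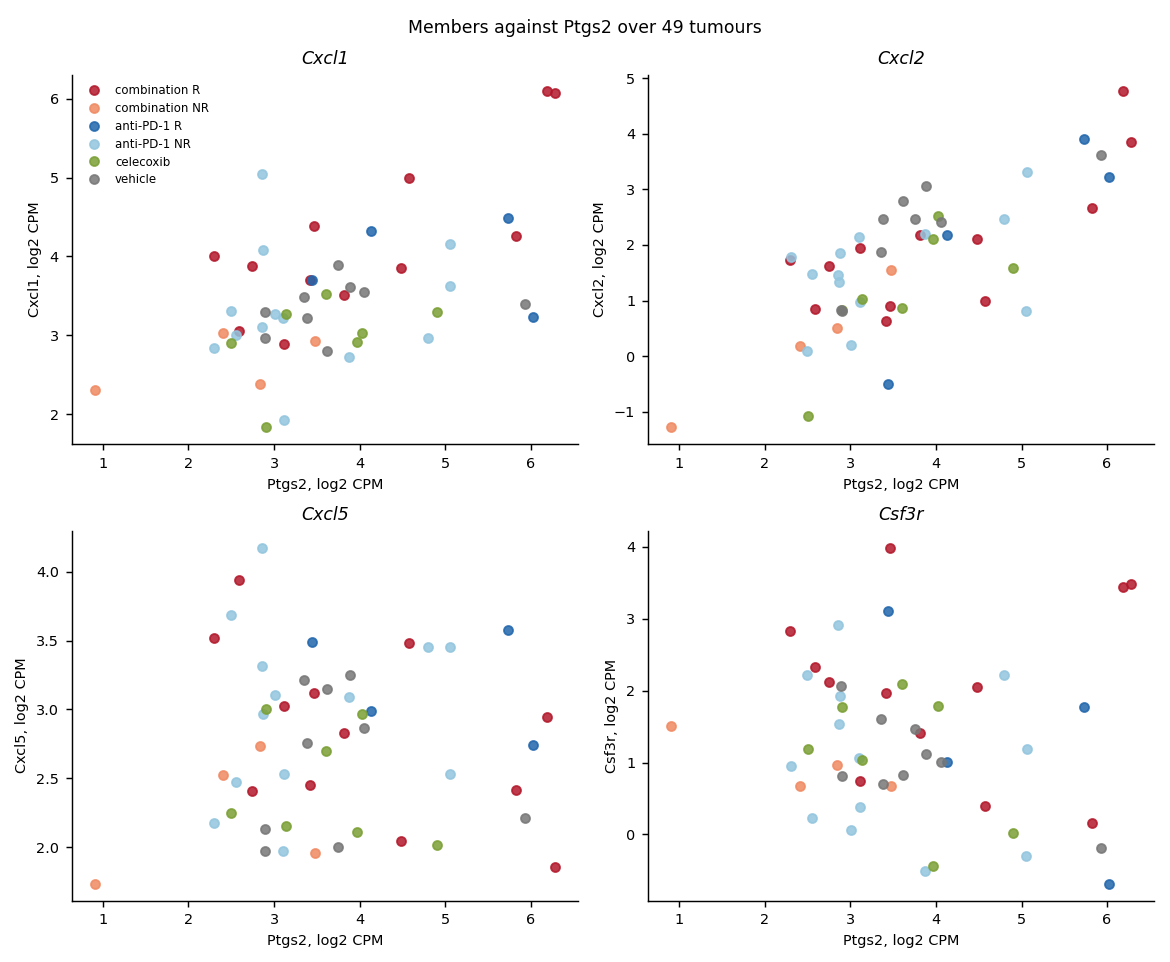
Log2 CPM of Cxcl1, Cxcl2, Cxcl5 and Csf3r (vertical axes) against Ptgs2 (horizontal axes), 1 point per tumour, coloured by treatment and response label. With treatment means removed, r with Ptgs2 is 0.76 for Cxcl2, 0.58 for Cxcl1, -0.02 for Cxcl5 and -0.11 for Csf3r.

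Cxcl1 had an r of 0.58 with Ptgs2 (rho 0.49, permutation p = 0.0002 and 0.00097), and within treatments r was 0.82 under the combination (permutation p = 7e-05), 0.25 under anti-PD-1 (permutation p = 0.344), 0.43 under celecoxib (exact p = 0.337) and 0.26 under vehicle (exact p = 0.492). Among combination R tumours alone r was 0.79 (permutation p = 0.0025), and among anti-PD-1 NR tumours alone 0.13 (permutation p = 0.68). A difference between these values was not tested. Without the same 2 tumours the pooled r was 0.41. Cxcl3 had an r of 0.35 (rho 0.32, permutation p = 0.0276 and 0.0274) that rested on those tumours, with 0.06 without them. For the other members r was 0.27 for S100a8 (rho 0.08), 0.10 for S100a9 (rho 0.08), -0.02 for Cxcl5 (rho -0.01), -0.02 for G0s2 (rho 0.00), -0.11 for Csf3r (rho -0.16) and -0.24 for Cxcr2 (rho -0.28), with permutation p between 0.0513 and 0.993. Without the same 2 tumours r was -0.34 for Csf3r (permutation p = 0.0307) and 0.11 for S100a8. Within treatments Csf3r had an r of -0.74 under vehicle (exact p = 0.035, rho -0.42), where leaving out the 2 tumours farthest from the median of Ptgs2 gave 0.21. S100a8 had 0.57 under the combination (permutation p = 0.0216, rho 0.30), and its r over all tumours was 0.0963 without combination replicate 5. In all, 72 such correlations were computed, 9 members in 8 sets of tumours, and their p-values are unadjusted.

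Adjustment over all genes came from an edgeR fit of each gene on Ptgs2 with treatment as terms, over 13899 genes. In that fit 23.2% of all genes were called, and 13.7% of all genes were called upwards, so a call alone says little. Of the 6 members tested, 2 were called, both upwards. Cxcl2 rose by 0.81 log2 units per log2 unit of Ptgs2 (SE 0.09, adjusted p = 3.1e-09), 45th by p among all genes, and Cxcl1 by 0.43 (SE 0.08, adjusted p = 0.000121), 454th. The slopes of Cxcl5 (-0.04, SE 0.08), Csf3r (0.01, SE 0.14), S100a8 (0.14, SE 0.11) and S100a9 (0.13, SE 0.09) did not pass. Muscle moved with Ptgs2 in the same fit, with 10 of 10 muscle markers called upwards, while 7 of 12 monocyte and macrophage markers were called downwards and none upwards. Without the 15 libraries with other tissue 6.69% of genes were called, and Cxcl2 had a slope of 0.80 (adjusted p = 7.4e-05) whereas Cxcl1 lost its call (0.28, adjusted p = 0.124). With the tissue covariates 18.3% of genes and both chemokines were called, Cxcl2 at 0.77 and Cxcl1 at 0.37. Without the 2 tumours farthest from the median of Ptgs2, where 22.4% of genes were called, the slopes were 0.69 for Cxcl2 (adjusted p = 3.39e-06) and 0.24 for Cxcl1 (adjusted p = 0.0472).

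**Figure D5:**
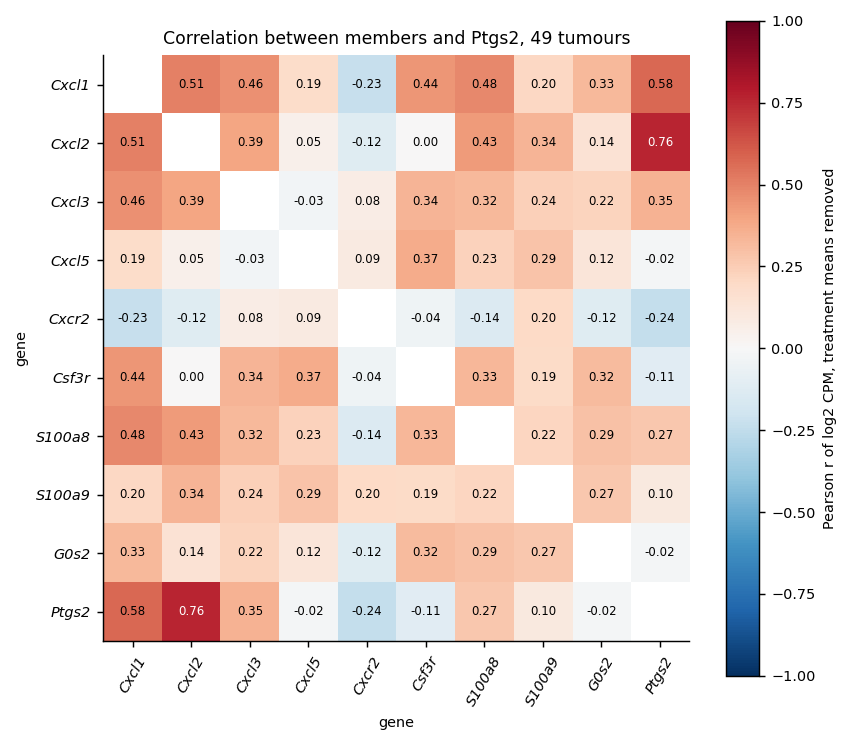
Pearson r between the log2 CPM of each pair of members and Ptgs2 over 49 tumours, with treatment means removed, as colour and number. Cxcl2 and Ptgs2 have the highest value at 0.76, Cxcl1 and Cxcl2 have 0.51, and S100a8 and S100a9 have 0.22.

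The members did not move as 1 group. Over the 15 pairs of the 6 members above the count filter, r with treatment means removed lay between 0.00 (Cxcl2 with Csf3r) and 0.51. Cxcl1 and Cxcl2, neighbours on the chromosome, had an r of 0.51, but Cxcl5 had 0.19 with Cxcl1 and 0.05 with Cxcl2. S100a8 and S100a9, whose proteins form 1 complex, had 0.22, at mean levels of 1.78 and 2.52 CPM where counting error is large. The genes most like Cxcl1 were Nos2, the inducible nitric oxide synthase of activated macrophages (r = 0.84), Glipr1 (0.83) and Esrra, an orphan nuclear receptor (0.79). Csf3r had its closest likeness to Satb1, a chromatin organizer of T cells (0.85), Lipa, lysosomal acid lipase (0.84) and Gpsm3 (0.84). For Cxcl5 these included Mdk and Ambra1 (0.58 and 0.57), for S100a8 Stk17b, Chpf2 and Il1rl1 (0.72, 0.66 and 0.64) and for S100a9 Selp, Cnbd2 and Pdk2 (0.57, 0.55 and 0.53). For Cxcr2 they were Morc4, Egfl7 and Fmnl2 (0.56, 0.53 and 0.51) and for Cxcl3 Antxr1, Lmbrd1 and Smcr8 (0.55, 0.55 and 0.55), at 88 and 29 counts over all libraries. All are descriptions over 49 tumours that share a normalization.

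Genes of the other lists gave few calls. Between groups, edgeR called 0% to 0.503% of all genes, so a list with 0 calls says little. Among 5 further genes listed beside the CXCR2 axis, 3 were tested and 0 called in any comparison of groups. These were Pf4, which is not an ELR chemokine, at 79.2 CPM, Ackr1, a scavenging chemokine receptor, at 1.80 CPM and Ppbp at 1.38 CPM. On Ptgs2, where 23.2% of all genes were called, Ackr1 alone of these 3 rose, by 0.36 (SE 0.14, adjusted p = 0.0498). Of 14 growth factors and inducers, 7 were tested and 0 called in any comparison or on Ptgs2: Csf3, the ligand of the Csf3r receptor, had 3 counts in all and Il17a 0, whereas Csf1 stood at 131 CPM, Nfkbiz at 66.4 CPM and Il17ra at 29.2 CPM. Of 33 neutrophil granule and surface genes, 17 were tested between treatments with 0 called, and 19 between response labels with 1 called. Mmp9, a matrix protease, fell by 1.11 log2 units in R against NR averaged over both antibody treatments (SE 0.23, edgeR adjusted p = 0.0344), beside 0.0491% of all genes called. In that comparison 17 of the 19 were positive with a median of 0.58, against 0.02 over all genes, so the 1 call ran against most of its list. On Ptgs2, 18 of this list were tested, with 3 called upwards and 1 downwards, beside the 23.2% of all genes. Clec4d, Clec4e and Il1r2, 2 C-type lectins and a decoy receptor for interleukin-1, rose by 0.34, 0.42 and 0.23 (adjusted p = 0.00529, 0.0074 and 0.0263). Mmp9 fell by 0.42 (adjusted p = 4.49e-06). Of 11 prostaglandin E2 genes other than Ptgs2, 9 were tested. Pla2g4a, the phospholipase that releases arachidonic acid, was the 1 gene of these called between treatments, in the combination against vehicle (0.64, SE 0.14, adjusted p = 0.0436) and against anti-PD-1. The shares of all genes called there were 0.0729% and 0.503%. On Ptgs2, 1 of the 9 was called upwards and 3 downwards, again beside 23.2% of all genes. Ptges, the inducible prostaglandin E synthase, rose by 0.14 (adjusted p = 0.0141), while Ptgs1, Ptger4 and Ptges2 fell by 0.23, 0.26 and 0.10 (adjusted p = 5.75e-05, 0.0241 and 0.0425).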

How the data were processed

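Bulk tumour RNA of 49 CT26 tumours was sequenced from transcript 3′ ends with a stranded kit, per the labels' protocols. The authors deposited raw counts for 39179 genes, and a table of log2 CPM values for 16559 genes that was used only to check the scale: log2(count + 0.5) minus the deposited log2 CPM was constant within each library to 9.99e-09. Per the submitters' processing notes the tools were bcl2fastq, STAR, featureCounts and limma and the build mm10 (GRCm38), with versions not given in the sources used here. Groups came from the labels, which give no batch.

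Counts were fitted with edgeR 4.0.16 in R 4.3.3 (TMM, filterByExpr, robust quasi-likelihood test, Benjamini-Hochberg adjustment over all genes tested), in 1 fit of 4 treatments, 1 of 6 treatment and response groups and 1 with log2 CPM of Ptgs2 as a covariate. CPM used TMM library sizes, and log2 CPM a prior count of 2. Correlations and members below the count filter were tested by two-sided permutation with 100000 resamples, or by full enumeration in groups under 10 (scipy 1.17.1). DESeq2 1.42.0, limma-voom (limma 3.58.1), RLE scaling, no count filter, the compared groups alone, tissue marker covariates and leaving out libraries were alternatives, and the edgeR fits were tested on simulated data. The 2 libraries with the highest correlation (r = 0.988) differed by more than sampling noise (chi-square 13.08 per gene), and other pairs were not compared this way. The 15 libraries with other tissue were those with a mean log2 CPM of muscle markers above 3, adipocyte markers above 6 or skin markers above 4, limits chosen after seeing the data. The members and lists were chosen with earlier results of these data known. Besides the members and Ptgs2, the text names for each member the 3 genes with the highest Pearson r (mean of at least 2 CPM, predicted genes left out; 1 gene of Cxcl5 is not reported here), and for each list the genes called, at most 4 by p, or otherwise the 3 with the highest mean. Csf3, Il17a and the neutrophil markers given with their counts were named after their values were seen.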

Additional observations from a re-analysis of the deposited data

Results flagged for a closer look

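Of 40 values of a gene in a group of 4 to 10 tumours, 6 had a highest or lowest tumour set apart from the others by an unusually large share of the group's range in log2 CPM, a test that chance passes in about 5% of groups. Cxcl1 was lowest in celecoxib replicate 3 at 3.31 CPM, the gap taking 0.631 of the range, and that tumour has the highest skin marker sum (1573 CPM) and a muscle marker sum of 3461 CPM. S100a8 was lowest in celecoxib replicate 5 at 0.599 CPM (0.587 of the range). Cxcl3 stood out in celecoxib replicate 1 (1.0 of the range) because its 0.162 CPM, from 1 count, was the only value above 0 in the group. G0s2 stood out likewise in combination NR replicate 5 (1.0 of the range) at 0.648 CPM, from 4 counts, with 0 in the other 3. G0s2 was also highest in vehicle replicate 6 at 4.59 CPM (0.504 of the range), the tumour with the highest adipocyte marker sum. Ptgs2 was highest in vehicle replicate 8 at 60.7 CPM (0.617 of the range), a tumour that also has the highest Cxcl2 of its group, 12.01 CPM, and the lowest monocyte and macrophage marker sum of all tumours, 744 CPM.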

How the results depend on the processing

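The count of members called changed in 3 cases apart from leaving out single libraries: DESeq2 called 1 member for R against NR under the combination and 2 for the average over both antibody treatments, against 0 by edgeR, and leaving out the libraries with other tissue gave 1 for the slope on Ptgs2, against 2. With single libraries left out, 0 to 1 members were called for the average over both antibody treatments and 0 in every other comparison between groups. No paired analysis was possible because the replicate numbers only name tumours and nothing in the labels pairs them. Differences that changed sign were all uncalled. Without the libraries with other tissue these were S100a9 for the combination against vehicle (-0.0033), G0s2 between R and NR of anti-PD-1 alone (-2.24), the Cxcl2 difference of R against NR between antibody treatments (-0.15), Cxcl1 for the combination against anti-PD-1 among R (-0.0722), and the slopes of Cxcl5 (0.0903) and Csf3r (-0.10). limma-voom reversed that G0s2 difference (-0.35) and the slopes of Cxcl5 (0.0047) and Csf3r (-0.0751). The slope of Cxcl5 was 0.0111 with tissue covariates, that of Csf3r -0.15 with response terms and -0.32 without the 2 tumours farthest from the median of Ptgs2, and that of S100a8 -0.0345 without them. Correlations with Ptgs2 near 0 changed sign too: without those 2 tumours Cxcl5 had 0.0438 and S100a9 -0.0526, and with tissue markers regressed out Cxcl5 had 0.0721, Csf3r 0.0035 and S100a9 -0.0236. Single tumours reversed Cxcl2 (0.058, without vehicle replicate 8) and Cxcl5 (-0.0017, without combination replicate 11) for the combination against vehicle. Over single tumours left out, Cxcl2 there ranged from -0.71 to 0.058, Cxcl5 from -0.0017 to 0.20, and G0s2 between R and NR of anti-PD-1 alone from -2.70 to 1.37. Such reversals of the correlation were 0.061 for Cxcl5, -0.0221 for S100a9 and 0.0307 for G0s2. The cause of these changes was not tested. Depth limits Cxcl3, Cxcr2 and G0s2, which have 29, 88 and 232 counts in all, and 4 combination NR tumours limit every comparison of response labels under the combination.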
